A study of Mus musculus with 12 samples.

Results

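Of the Cyp2d and Cyp2j genes of cytochrome P450 in mouse liver, Cyp2j5 and Cyp2j6 were higher in each PZH mouse than in any control mouse. Of all genes, 24.3% had groups that did not overlap, in either direction. Cyp2d9 and Cyp2d40 were called higher with overlap between the groups. These calls were lost in 8 and 7 of the 12 fits that each left out 1 mouse. Cyp2d10, Cyp2d22 and Cyp2d26 were not called on the deposited scale, and Cyp2d22 was called higher once the mice were rescaled. The members were 9 genes taken by symbol: Cyp2d9, Cyp2d10, Cyp2d12, Cyp2d13, Cyp2d22, Cyp2d26, Cyp2d40, Cyp2j5 and Cyp2j6. The deposited protein-coding table listed 7 of these 9 genes, with 15 transcripts, among 14188 genes and 29883 transcripts in all. Cyp2d12 and Cyp2d13 were not listed there and have no value below.

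The study compared livers of 12 mice in 2 groups of 6. All 12 mice received CCl4, a solvent whose breakdown by liver P450 enzymes injures hepatocytes, as a mixture with corn oil injected into the abdomen at 10 µl/g, so that the control group was itself a group with injured livers. The mice of the PZH group were in addition dosed intragastrically with Pien Tze Huang (PZH), a Chinese herbal and animal-product medicine, at 0.25 mg/g, and those of the control group received water. The labels give the strain as C57BL/8, while the methods of the study describe male C57BL/6J mice that were 6 weeks old at the start and were killed in week 8. No mice without CCl4 were analysed here, so no level below can be set against that of an uninjured liver.

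P450 enzymes are heme proteins of the endoplasmic reticulum that insert an oxygen atom into drugs, steroids and fatty acids, with electrons handed over by P450 reductase or cytochrome b5. The mouse Cyp2d genes form a cluster of close copies whose human relative, CYP2D6, oxidises many drugs. The Cyp2j enzymes are best known as epoxygenases, which turn arachidonic acid into epoxides that soluble epoxide hydrolase then opens to diols. In rodents the output of several liver P450 genes, some Cyp2d genes included, differs between males and females.

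The Cyp2d members lay on chromosome 15 and the Cyp2j members on chromosome 4 (GRCm38, GENCODE M21). Cyp2d22 was at chr15:82370527-82380260, Cyp2d10 at chr15:82402846-82407195, Cyp2d9 at chr15:82433437-82456845, Cyp2d40 at chr15:82759833-82764183 and Cyp2d26 at chr15:82790101-82794294. Of these, Cyp2d9 alone was annotated on the plus strand. Cyp2j6 was at chr4:96516138-96553661 and Cyp2j5 at chr4:96628773-96664154, both on the minus strand, with Cyp2j9 between them at chr4:96568429-96591578.

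How alike the genes are is shown by the coding stretch around the cysteine codon that binds the heme iron, the part that all P450 genes share. The stretches are the 60 coding bases of the longest open reading frame of the main transcript (GENCODE M21), 5′ to 3′. Capitals mark bases that differ from Cyp2d9 in the Cyp2d genes and from Cyp2j5 in the Cyp2j genes.
Cyp2d9: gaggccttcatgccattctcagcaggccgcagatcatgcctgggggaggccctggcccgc
Cyp2d10: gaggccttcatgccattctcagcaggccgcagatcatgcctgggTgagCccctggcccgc
Cyp2d22: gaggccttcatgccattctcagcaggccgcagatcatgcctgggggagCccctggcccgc
Cyp2d26: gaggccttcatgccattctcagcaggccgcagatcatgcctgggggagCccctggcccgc
Cyp2d40: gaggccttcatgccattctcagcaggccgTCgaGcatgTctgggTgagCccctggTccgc
Cyp2j5: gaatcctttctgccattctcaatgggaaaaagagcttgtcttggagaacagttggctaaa
Cyp2j6: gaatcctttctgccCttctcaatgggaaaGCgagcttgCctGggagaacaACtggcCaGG
Cyp2j9: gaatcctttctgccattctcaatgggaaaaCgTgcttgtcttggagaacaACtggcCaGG

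Here Cyp2d22 and Cyp2d26 differed from Cyp2d9 at 1 base, Cyp2d10 at 2 and Cyp2d40 at 7, while Cyp2j6 differed from Cyp2j5 at 10. Over the whole coding sequence Cyp2d9 and Cyp2d10 were 92.5% identical, Cyp2d9 and Cyp2d26 82.4% and Cyp2d9 and Cyp2d22 78.9%. Cyp2j5 and Cyp2j6 were 80.6% identical, and Cyp2d9 and Cyp2j5 62.4%. Such likeness bears on the values, since a read that fits 2 genes can be split between them. Of all windows of 150 bases, the length of 1 read, 6.4% of those of the main Cyp2d10 transcript also occurred in Cyp2d9 or Cyp2d11, and 1.54% of those of Cyp2d9 also occurred in Cyp2d10 or Cyp2d12. For Cyp2d22, Cyp2d26, Cyp2d40, Cyp2j5 and Cyp2j6 the share was 0.0%. Only exact matches to annotated transcripts of genes whose symbols begin with Cyp2 were counted. Reads that fit another gene with mismatches, or fit genes of other names, are thus not covered.

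Each value below is a gene FPKM, the sum of the FPKM of the listed transcripts of the gene, where FPKM counts the fragments assigned to a transcript, divided by its length in kilobases and by the size of the library in M fragments. A search for steps between low FPKM values, over a preset range of steps only, gave 26.8 to 43.2 M fragments per mouse. Only 26.4% to 38.2% of the low values lay close to whole steps (within 0.1 of one). The depth was thus not established and read counts were not recovered, and the error of a value is the spread between mice. A gene was called when the P value of limma on log2(FPKM + 1), adjusted by Benjamini-Hochberg over all 14188 genes, was under 0.05. The 9 listed hepatocyte markers summed to 44340 to 60970 FPKM in the PZH mice, against 27700 to 40780 in the control mice, so hepatocyte RNA was present in every sample. Most of this sum was Alb, with means of 38440 FPKM in the PZH group and 24060 FPKM in the control group (log2 change 0.68).

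In level the members fell into an upper and a lower set. In the control group Cyp2d26 (261 ± 14.7 FPKM, SD, n = 6) and Cyp2d10 (245 ± 21.1) stood above Cyp2d9 (164 ± 35.6) and Cyp2j5 (126 ± 8.90), followed at a distance by Cyp2d22 (30.3 ± 4.43), Cyp2d40 (14.8 ± 3.06) and Cyp2j6 (12.9 ± 0.918). Neighbours in this order whose ranges overlapped were Cyp2d26 and Cyp2d10, Cyp2d9 and Cyp2j5, and Cyp2d40 and Cyp2j6. In the PZH group Cyp2d10 (244 ± 19.0 FPKM, SD, n = 6), Cyp2d26 (243 ± 9.53) and Cyp2d9 (240 ± 62.4) were level with each other, with ranges that overlapped. There Cyp2j5 (185 ± 27.0) was still the fourth by mean, with a range that overlapped that of Cyp2d9 and a lower value than Cyp2d9 in 5 of 6 mice, and Cyp2d22 (33.3 ± 5.16) the fifth, and Cyp2j6 (22.1 ± 3.78) stood above Cyp2d40 (18.8 ± 1.89) in 5 of 6 mice, with ranges of Cyp2d22, Cyp2j6 and Cyp2d40 that overlapped from one to the next. In the control group Cyp2d40 was above Cyp2j6 in 3 of 6 mice.

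**Figure D1:**
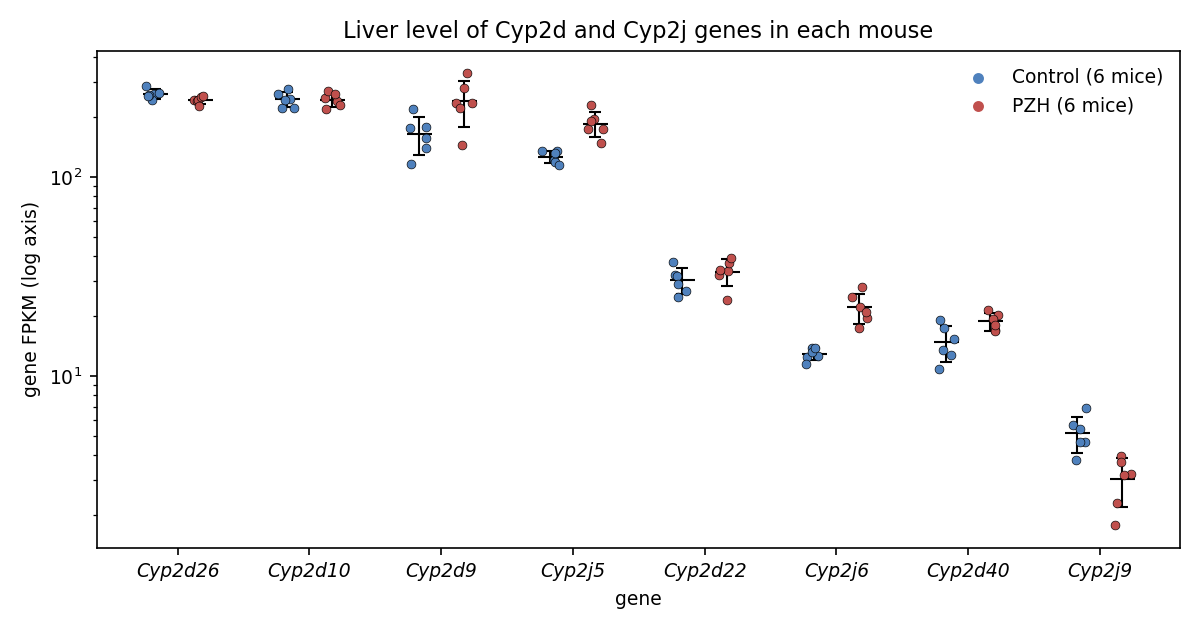
Gene FPKM of each mouse on a log axis for the 7 listed members and Cyp2j9, with 6 control mice (blue) and 6 PZH mice (red) per gene; the bars are the mean ± SD. The PZH mice lie above every control mouse for Cyp2j5 (147.7 to 228.2 against 115.0 to 135.1) and Cyp2j6 (17.32 to 27.84 against 11.5 to 13.9), and the groups overlap for the other genes.

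Of the 7 members, 4 were called higher in the PZH group, 0 were called lower and 3 were not called (limma, adjusted P). Over all genes 44.8% were called, 12.7% as higher and 32.1% as lower. The median log2 change of the 7 members was 0.34, beside -0.11 over all genes and 0.31 over the other 63 listed Cyp genes, of which 28 were higher and 6 lower. At the 2-fold criteria of the study, an absolute log2 change of at least 1 with a P value under 0.05, 0 of the 7 members passed, against 4.02% of all genes.

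The Cyp2j members gave the clearest difference. Cyp2j6, a gene expressed in many organs, had 17.3, 21.6 and 27.8 FPKM as the lowest, median and highest value of the PZH mice and 11.5, 12.9 and 13.9 FPKM in the control mice. The groups did not overlap. The log2 change was 0.72 (SE 0.10, 95% interval 0.50 to 0.94, limma adjusted p = 0.000138), a fold of 1.65 on the log2(FPKM + 1) scale.

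Cyp2j5, the main Cyp2j gene of this tissue by FPKM and an arachidonic acid epoxygenase, had 147.7, 182.4 and 228.2 FPKM as the lowest, median and highest value of the PZH mice. The control mice had 115.0, 126.8 and 135.1 FPKM, so that again each PZH mouse was above each control mouse. The log2 change was 0.54 (SE 0.09, 95% interval 0.33 to 0.74, limma adjusted p = 0.000594). For both genes PZH mouse 2 was the lowest and PZH mouse 1 the highest of the PZH group. Of all genes, 24.3% had groups that did not overlap, so that 2 of 7 members is near this background. The summed Cyp2j members were 207 ± 30.6 FPKM (SD, n = 6) in the PZH group, against 139 ± 9.57 (SD, n = 6) in the controls.

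Cyp2d9, a testosterone hydroxylase gene known for higher expression in male than in female mouse liver, had 143.7, 233.5 and 330.4 FPKM as the lowest, median and highest value of the PZH mice and 115.7, 165.8 and 219.1 FPKM in the control mice. In 5 of 6 PZH mice the value was above that of every control mouse, and PZH mouse 2 lay within the control range. The log2 change was 0.53 (SE 0.19, 95% interval 0.13 to 0.94, limma adjusted p = 0.0347). Of all members, Cyp2d9 varied the most within the groups, with a coefficient of variation of 26% in the PZH and 21.8% in the control group. The call lay close to the threshold. It was lost in 8 of the 12 fits that left out a mouse (PZH 1, 3, 4, 5 or 6, or Control 1, 3 or 6). Over the 12 fits the log2 changes were 0.43 to 0.67 and the limma adjusted p-values 0.0044 to 0.0743.

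Cyp2d40 had 16.8, 18.6 and 21.6 FPKM as the lowest, median and highest value of the PZH mice and 10.9, 14.4 and 19.2 FPKM in the control mice. Each PZH mouse was above the control median and 3 of 6 were above the highest control mouse. The log2 change was 0.34 (SE 0.12, 95% interval 0.08 to 0.60, limma adjusted p = 0.0354). This call was lost in 7 of the 12 fits that left out a mouse (PZH 3, 4 or 6, or Control 1, 2, 5 or 6), with log2 changes of 0.26 to 0.41 and adjusted p-values of 0.0104 to 0.0774. Its listed transcript has 6 exons and 1163 bases with an open reading frame of 338 codons, which is shorter than in the other Cyp2d members.

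The other Cyp2d members were not called. Cyp2d10 had 218.0, 243.5 and 268.1 FPKM as the lowest, median and highest value of the PZH mice and 221.5, 245.1 and 275.2 FPKM in the control mice, nearly the same range. Its log2 change was -0.01 (95% interval -0.17 to 0.15, limma adjusted p = 0.948), which became 0.18 (adjusted p = 0.0725) when each mouse was divided by a median-ratio scale factor. Cyp2d26 had 226.2, 243.4 and 253.0 FPKM in the PZH mice, against 242.7, 258.7 and 287.1 FPKM in the control mice. All 6 PZH values lay below the control median. Its log2 change was -0.11 (95% interval -0.23 to 0.02, limma adjusted p = 0.146) and turned to 0.09 (adjusted p = 0.368) with the scale factor. Cyp2d22, the mouse gene most often set beside human CYP2D6, had 24.1, 33.8 and 39.1 FPKM in the PZH mice, against 25.0, 30.5 and 37.2 FPKM in the control mice. Its log2 change was 0.13 (95% interval -0.13 to 0.39, limma adjusted p = 0.41), and with the scale factor it was 0.32 and was called (adjusted p = 0.0405).

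This scale factor, the median ratio of each mouse to a common reference, moved the log2 change of all genes by a median of 0.15 and that of the members by 0.19. With it, 2807 genes were higher and 2739 lower, against 1798 higher and 4560 lower with FPKM as deposited. Cyp2d9, Cyp2d40, Cyp2j5 and Cyp2j6 were called higher on both scales, Cyp2d22 with the scale factor only, and the sign of the change flipped for Cyp2d10 and Cyp2d26, which were called on neither.

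**Figure D2:**
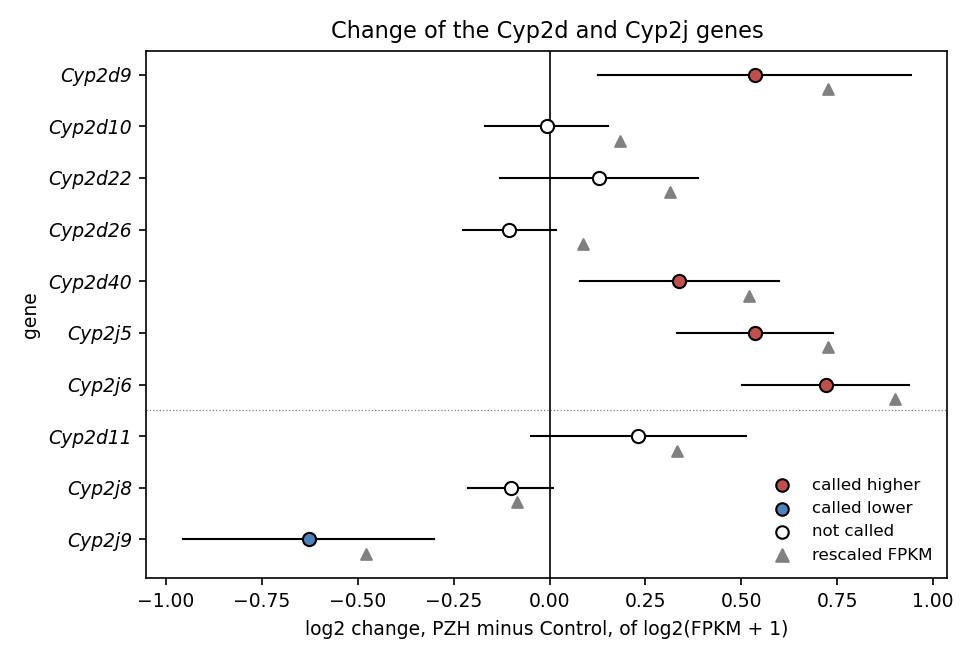
Log2 change of each gene (PZH minus control, on log2(FPKM + 1)) with its 95% interval; red circles were called higher, blue lower and white not called, and grey triangles are the changes after division by the median-ratio scale factor. Cyp2j6 (0.72) lies farthest right and Cyp2j9 (-0.63) farthest left, and Cyp2d10 and Cyp2d26 lie on opposite sides of 0 on the 2 scales; the 3 genes under the dotted line are not members.

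The remaining listed genes of both subfamilies were far lower. Cyp2j9, a gene described mostly from brain, was the one that was lower in the PZH group, with 1.78, 3.22 and 3.96 FPKM as the lowest, median and highest value of the PZH mice and 3.78, 5.04 and 6.90 FPKM in the control mice. In 5 of 6 PZH mice it was below the lowest control mouse. The log2 change was -0.63 (SE 0.15, 95% interval -0.96 to -0.30, limma adjusted p = 0.00479), opposite in sign to those of Cyp2j6 and Cyp2j5, its neighbours on the chromosome. Cyp2d11 had 1.34 ± 0.519 FPKM (SD, n = 6) in the PZH group, against 0.948 ± 0.104 (SD, n = 6) in the controls and was not called (log2 change 0.23, limma adjusted p = 0.165). Cyp2j8 had 0.0656 ± 0.0292 and 0.144 ± 0.05 FPKM (SD, n = 6 each) and was not called either (log2 change -0.10, limma adjusted p = 0.127). Cyp2j8 lies so low that the added 1 sets most of this value.

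Since ratios between genes of 1 mouse do not depend on how that mouse was scaled, apart from the added 1, the 11 pairs of members within a subfamily were compared as well. The difference in log2(FPKM + 1) was tested by an exact permutation test, two-sided, over all labellings of the 12 mice, whose smallest p is 0.0022, with Benjamini-Hochberg adjustment over the 11 pairs. The ratio of Cyp2j5 to Cyp2j6 was 7.67 to 8.92 in the PZH mice, against 9.05 to 10.7 in the control mice, with no overlap. Its log2 difference was -0.18 (exact permutation p = 0.00433, adjusted 0.0476), so Cyp2j6 rose by more than Cyp2j5. The share of Cyp2j6 in the summed Cyp2j FPKM restates this ratio of FPKM and adds no further evidence. It was 10.1% to 11.5% in the PZH mice, against 8.56% to 9.95% in the control mice.

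Among the Cyp2d genes, Cyp2d40 rose relative to Cyp2d10 and Cyp2d26. The ratio of Cyp2d10 to Cyp2d40 had a median of 12.5 in the PZH mice, against 16.7 in the control mice (log2 difference -0.35, exact permutation p = 0.0130, adjusted 0.0476). The ratio of Cyp2d26 to Cyp2d40 had a median of 12.8 in the PZH mice, against 17.8 in the control mice (log2 difference -0.44, exact permutation p = 0.00866, adjusted 0.0476). In both pairs the lowest control mouse, Control 4, lay within the PZH range. The ratio of Cyp2d9 to Cyp2d26 had a median of 0.959 in the PZH mice, against 0.636 in the control mice, which missed the threshold after adjustment (log2 difference 0.64, exact permutation p = 0.0195, adjusted 0.0536), as did Cyp2d9 to Cyp2d10 (0.54, exact permutation p = 0.0325, adjusted 0.0714). The other 6 pairs had adjusted p-values of 0.135 to 0.426 in the exact permutation test. Without 1 mouse, 0 to 5 of the 11 pairs passed. The Cyp2d10 to Cyp2d40 pair failed in 9 of these 12 tests (without PZH 2, 3, 4, 5 or 6, or Control 1, 2, 3 or 6) and the Cyp2d26 to Cyp2d40 pair in 8 (the same mice except PZH 2), and Cyp2j5 to Cyp2j6 failed in 5 of these 12 tests, without PZH 4, PZH 5, PZH 6, Control 2 or Control 3, with log2 differences of -0.21 to -0.16 over all 12.

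**Figure D3:**
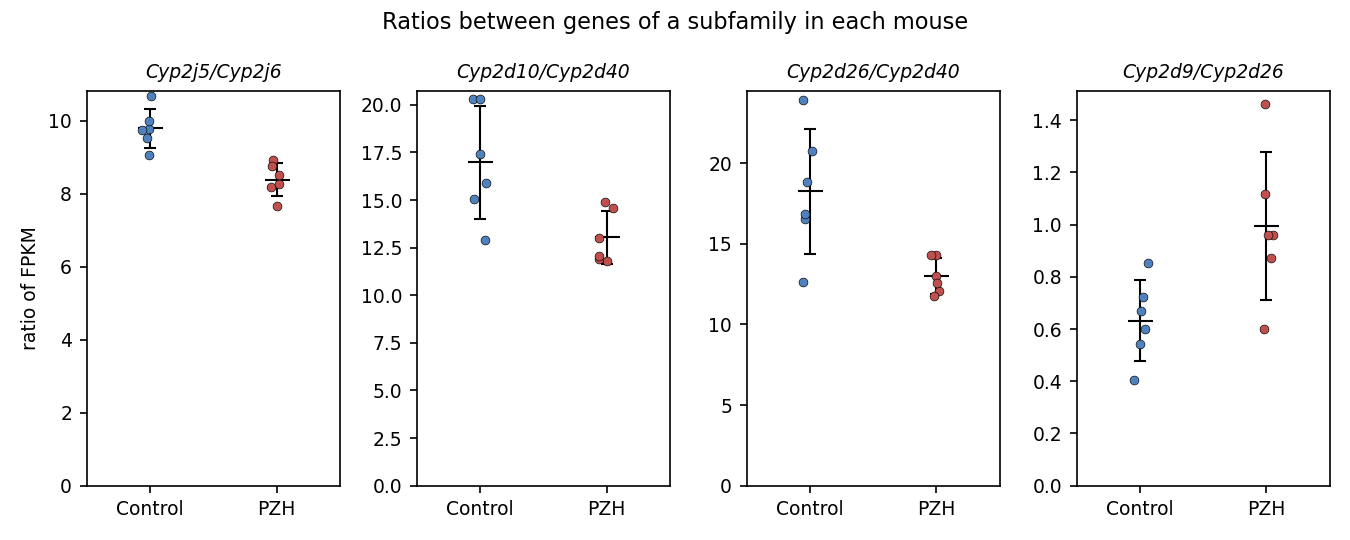
Ratio of FPKM of 4 pairs of genes in each of 6 control mice (blue) and 6 PZH mice (red), with the mean ± SD; each axis starts at 0. The Cyp2j5 to Cyp2j6 ratio is 9.054 to 10.69 in the control mice and 7.666 to 8.922 in the PZH mice, and the groups overlap in the other 3 pairs.

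The summed FPKM of the 5 listed Cyp2d members was 779 ± 75.4 (SD, n = 6) in the PZH group, against 715 ± 29.6 (SD, n = 6) in the controls, with ranges of 649.9 to 879.7 and 674.4 to 766.6 that overlapped. Cyp2d9 made up 30.5% ± 5.35 (SD, n = 6) of it in the PZH mice, against 22.8% ± 4.42 (SD, n = 6) in the control mice. Cyp2d26 made up 31.4% ± 3.53 and 36.6% ± 2.52, and Cyp2d10 31.4% ± 1.95 and 34.3% ± 2.85 (SD, n = 6 each). Cyp2d22 and Cyp2d40 each stayed at or under 5.18% in every mouse. These shares are bound to each other, since a larger share of 1 gene lowers the others, and were not tested.

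**Figure D4:**
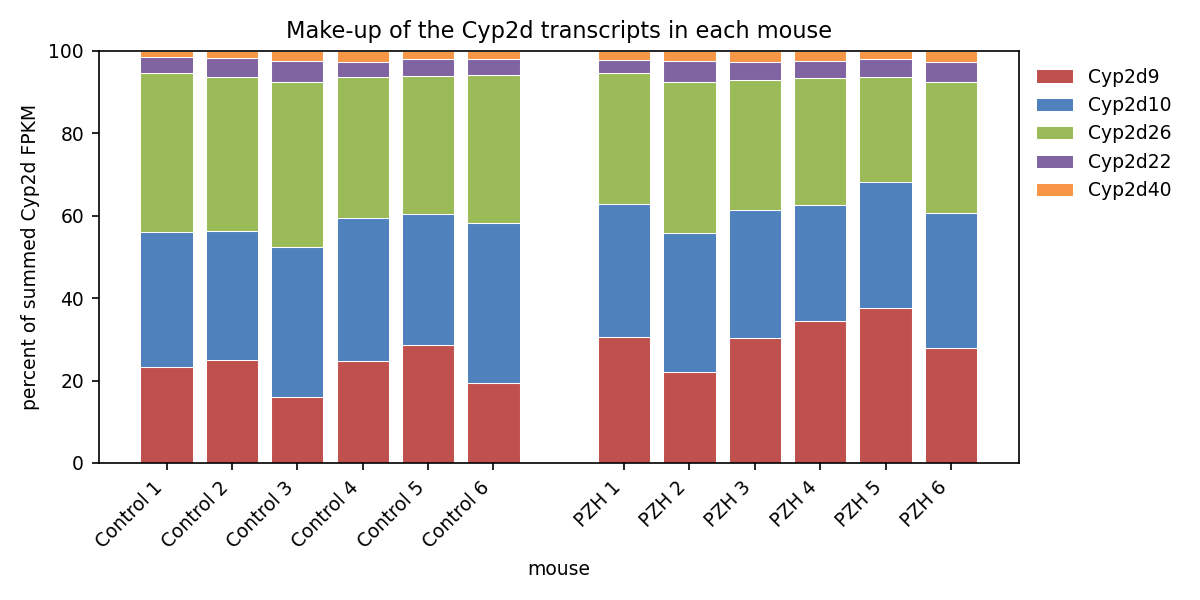
Share of each Cyp2d member in the summed Cyp2d FPKM of each mouse, in percent, with 6 control mice on the left and 6 PZH mice on the right. The Cyp2d9 share is 16.11% to 28.58% in the control mice and 22.12% to 37.56% in the PZH mice.

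At the level of transcripts, 2 of the 15 listed transcripts of the members were called, the single listed transcripts of Cyp2j5 (ENSMUST00000030299, limma adjusted p = 0.00224) and Cyp2j6 (ENSMUST00000030303, limma adjusted p = 0.000615), both higher. The adjustment was over all 29883 transcripts, of which 19.7% were called, 5.73% as higher and 14% as lower. Of the 15, 0 met the 2-fold criteria, against 3.23% of all transcripts. The groups did not overlap for the same 2 transcripts and for 12% of all transcripts. Cyp2d26 and Cyp2d40 also had 1 listed transcript each, whose log2 changes equal those of their genes, with limma adjusted p-values of 0.227 and 0.0781.

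Cyp2d9 had 5 listed transcripts. Its full-length form ENSMUST00000089129, with 9 exons and 1712 bases, had 113.1 to 264.0 FPKM in the PZH mice, against 95.02 to 175.0 FPKM in the control mice (log2 change 0.58, SE 0.20, limma adjusted p = 0.0568). It made up 81.5% ± 4.44 (SD, n = 6) of the gene in the PZH mice, against 78.9% ± 6.30 (SD, n = 6) in the control mice, a share that was not shown to differ (two-sided exact permutation p = 0.42, adjusted 0.558 over 3 genes). The shorter forms ENSMUST00000230000 and ENSMUST00000230024 had 0.0 to 29.9 and 2.73 to 38.1 FPKM over the 12 mice. The remaining forms, ENSMUST00000229313 and ENSMUST00000231136, stayed under 6.1 FPKM.

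Cyp2d10 had 4 listed transcripts. The full-length form ENSMUST00000072776 had 163.0 to 230.3 FPKM in the PZH mice, against 110.0 to 218.1 FPKM in the control mice, and made up 80.4% ± 4.43 and 74.8% ± 14.95 of the gene (SD, n = 6 each; two-sided exact permutation p = 0.558). The low end came from Control 4, where its share was 44.6% and where the shorter form ENSMUST00000230843 had 104.5 FPKM against 38.0 to 42.8 in the other control mice and 37.2 to 42.9 in the PZH mice. The gene total of Control 4, 247.0 FPKM, lay in the middle of its group. ENSMUST00000230198 was listed at 0 in 5 of 12 mice and reached 32.3 FPKM in Control 4. Cyp2d22 had 99.2% ± 0.545 of its FPKM in ENSMUST00000023083 in the PZH mice, against 99.6% ± 0.460 in the control mice (SD, n = 6 each; two-sided exact permutation p = 0.178, adjusted 0.533 over 3 genes).

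**Figure D5:**
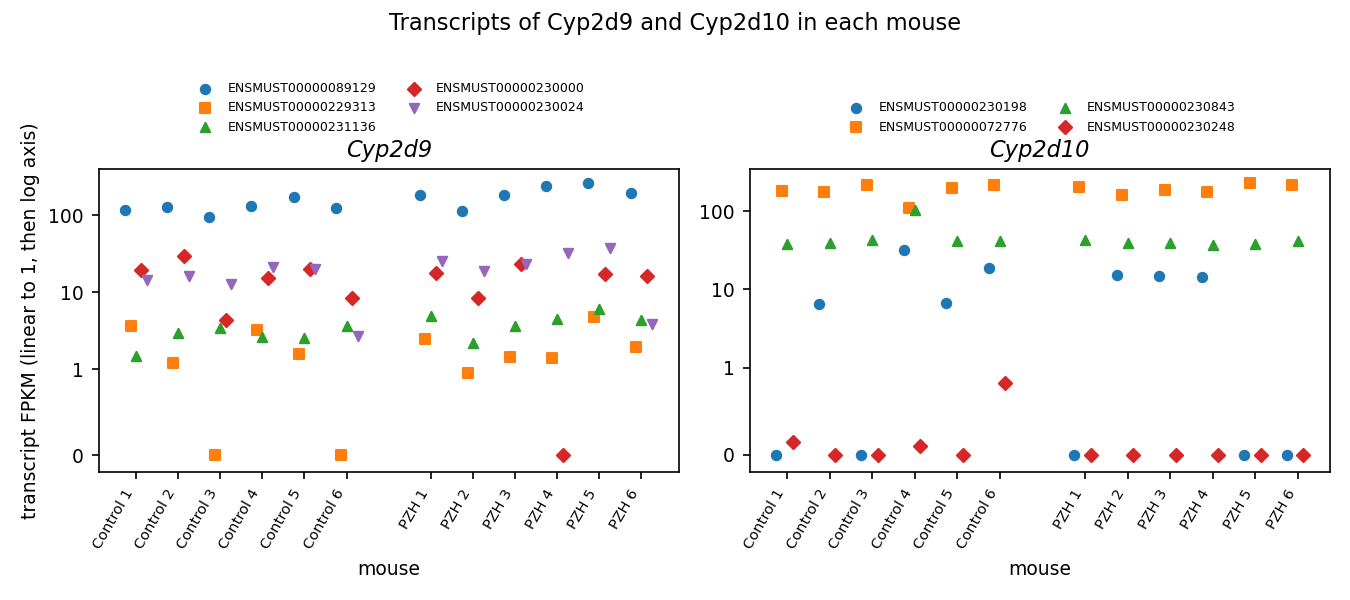
FPKM of each listed transcript of Cyp2d9 (left) and Cyp2d10 (right) in each mouse, on an axis that is linear up to 1 and logarithmic above; symbols of 1 mouse are set slightly apart. The full-length forms are the top symbols in every mouse, and Control 4 stands apart in Cyp2d10 with 110.0 FPKM of the full-length form and 104.5 FPKM of ENSMUST00000230843.

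The sequence before the start site was compared for the genes with a RefSeq promoter (250 bases before to 50 after the start, GRCm38.p6), which covered 6 of the 7 listed members; none was at hand for Cyp2d22. The promoter of Cyp2d9 was 84.8% identical to that of Cyp2d10 and 81.9% identical to that of Cyp2d40, while the promoter of Cyp2d26 stood apart, with 66.5% identity to Cyp2d9. A 9-base stretch, ACAAAGNGC on either strand with N for any base, was present in all 5 Cyp2d promoters at hand (4 members and Cyp2d11) and in 1.06% of 32851 mouse promoters. It was picked after these sequences had been read, so its share has no bearing as a test. The 50 bases around it are printed with the stretch in capitals, because they show how far the called genes Cyp2d9 and Cyp2d40 and the genes without a call share their start region.
Cyp2d9: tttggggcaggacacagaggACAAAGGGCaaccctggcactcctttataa
Cyp2d10: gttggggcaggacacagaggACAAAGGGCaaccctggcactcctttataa
Cyp2d11: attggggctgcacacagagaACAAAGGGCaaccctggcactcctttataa
Cyp2d40: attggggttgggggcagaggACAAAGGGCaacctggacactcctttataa
Cyp2d26: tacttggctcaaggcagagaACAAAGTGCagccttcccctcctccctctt

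The windows were chr15:82452306-82452355 on the plus strand for Cyp2d9 and, on the minus strand, chr15:82407219-82407268 for Cyp2d10, chr15:82394059-82394108 for Cyp2d11, chr15:82764207-82764256 for Cyp2d40 and chr15:82794275-82794324 for Cyp2d26. The stretch began 51 bases before the RefSeq start in Cyp2d9, 54 in Cyp2d10, 59 in Cyp2d26, 66 in Cyp2d11 and 114 in Cyp2d40. These windows were not trimmed to the GENCODE start, which was at 82452334 for Cyp2d9 and 82794294 for Cyp2d26. Part of the window of these genes thus lay within the annotated transcript. The TATA box letters TATAAA, on either strand, occurred in all 5 of these promoters and in 13.6% of all promoters. Genes that were called higher and genes that were not thus had both sets of letters.

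The Cyp2j promoters were less alike than those of Cyp2d9, Cyp2d10 and Cyp2d40, with 58.3% identity between Cyp2j5 and Cyp2j6, which were both higher, 59.6% between Cyp2j5 and Cyp2j9 and 64.1% between Cyp2j6 and Cyp2j9. Bases before both the RefSeq and the GENCODE start are printed, on the minus strand, at chr4:96664155-96664369 for Cyp2j5, chr4:96553662-96553901 for Cyp2j6 and chr4:96591579-96591735 for Cyp2j9, since these neighbours moved in opposite directions. Capitals mark TATAAA and TGTTTAC, a Foxa motif, on either strand.
Cyp2j5: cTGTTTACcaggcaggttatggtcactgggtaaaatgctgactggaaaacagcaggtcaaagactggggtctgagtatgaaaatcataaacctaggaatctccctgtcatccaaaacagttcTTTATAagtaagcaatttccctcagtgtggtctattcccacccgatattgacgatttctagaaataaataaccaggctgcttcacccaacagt
Cyp2j6: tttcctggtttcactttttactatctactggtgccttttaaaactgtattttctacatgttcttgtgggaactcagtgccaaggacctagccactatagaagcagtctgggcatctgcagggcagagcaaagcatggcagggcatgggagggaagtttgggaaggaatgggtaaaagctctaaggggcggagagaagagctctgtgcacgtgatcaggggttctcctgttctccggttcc
Cyp2j9: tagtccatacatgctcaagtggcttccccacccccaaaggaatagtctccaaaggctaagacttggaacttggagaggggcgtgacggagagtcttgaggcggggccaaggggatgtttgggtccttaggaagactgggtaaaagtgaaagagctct

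TGTTTAC occurred in 3.65% of all promoters and, of the members at hand, in Cyp2j5. The letters TTGCNNAA, a C/EBP motif found in 10.8% of all promoters, were in the 300-base windows of Cyp2j8 and Cyp2j9 and of none of these members. TTCNNNGAA, a Stat5 motif found in 8.3% of all promoters, CAAAGTCCA, an Hnf4a motif found in 0.475%, a repeat read by nuclear receptors (AGGTCA in tandem with 1 base between) found in 0.0396%, and CCGGAAG, an Ets motif found in 8.86%, were in none of the windows. These matches describe letters in a window. Only the exact letters given, with N for any base, were searched. Looser forms of these motifs were not looked for, within the ACAAAGNGC stretch or elsewhere, so their absence is not shown.

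The genes that serve these enzymes were read from lists of the same pathway. These lists, and the lists of regulators and markers that follow, were counted with FPKM as deposited. Their calls with the median-ratio scale factor, which moved log2 changes up by a median of 0.15, are not given. Of 7 listed genes of electron supply, 4 were called higher and 1 lower, with a median log2 change of 0.42. Por, the P450 reductase, had 122 ± 28.4 FPKM (SD, n = 6) in the PZH group, against 70.0 ± 12.8 (SD, n = 6) in the controls (log2 change 0.77, SE 0.17, limma adjusted p = 0.00269). Cyb5a, cytochrome b5, had 253 ± 45.9 and 178 ± 21.6 FPKM (SD, n = 6 each; log2 change 0.50, limma adjusted p = 0.00409). Of 8 genes of heme synthesis 1 was called, Alas1, the rate-limiting enzyme, with 21.7 to 88.5 FPKM in the PZH mice, against 14.6 to 38.9 in the control mice (log2 change 0.84, SE 0.32, limma adjusted p = 0.0456), and the median of the 8 was 0.04.

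Among the enzymes that act on arachidonic acid and its epoxides, Ephx2, the soluble epoxide hydrolase downstream of the Cyp2j enzymes, was higher, with 147 ± 27.1 FPKM (SD, n = 6) against 104 ± 27.4 (SD, n = 6; log2 change 0.52, SE 0.17, limma adjusted p = 0.0281). Ephx1, the microsomal hydrolase, was not called (log2 change 0.21, limma adjusted p = 0.2). Of 12 listed Cyp2c genes, which hold other epoxygenases, 11 were called higher and 0 lower, with a median log2 change of 1.02. Cyp2c55 (16.4 against 1.77 FPKM, log2 change 2.64) and Cyp2c29 (719 against 212 FPKM, log2 change 1.82) changed the most of these. Of 14 Cyp4 genes, which hydroxylate fatty acids at the far end, 4 were higher and 4 lower, led by Cyp4f15 (log2 change 1.35) and Cyp4a12a (log2 change -1.11). Of 15 other genes of arachidonate use, with the cyclooxygenase and lipoxygenase routes, 1 was higher and 5 were lower, with Alox5ap (log2 change -0.46) and Ptges3 (log2 change -0.40) first on the log2(FPKM + 1) scale. The added 1 understates the change of low genes in this ranking, as in those of the other lists: Ptgs2, named after its values were seen, was 0.0270 FPKM against 0.327 and had a log2 change of -0.36.

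Of 18 genes that regulate liver P450 expression, 5 were higher and 3 lower, with a median log2 change of 0.16. Hnf4a, a nuclear receptor needed for much of the hepatocyte program, had 105.3 to 146.0 FPKM in the PZH mice, against 156.3 to 178.9 in the control mice, with no overlap (log2 change -0.30, SE 0.08, limma adjusted p = 0.00937). Cebpb was lower (3.58 against 9.78 FPKM, log2 change -1.20, limma adjusted p = 0.000311), and Nr1i3, the receptor CAR, was higher (19.0 against 7.87 FPKM, log2 change 1.15, limma adjusted p = 0.00278). Nr0b2, a partner that represses nuclear receptors, and Stat5b, which carries the growth hormone signal, were not called (log2 changes -0.35 and 0.21, limma adjusted p = 0.194 and 0.221). Of 15 genes known to be higher in male livers, a class to which Cyp2d9 belongs, 3 were higher and 2 lower, led by Selenbp2 (log2 change 1.89) and Cyp4a12a. Of 9 listed genes known to be higher in female livers, 3 were higher and 0 lower, led by Acot3 (log2 change 1.11) and Cyp3a44 (log2 change 0.29).

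Markers of cell types and of liver zones were counted beside these results, against the 44.8% of all genes that were called. Of 7 pericentral markers, genes of the hepatocytes around the central vein where many P450 genes are expressed, 4 were higher and 0 lower, and their summed level was 974.0 to 1980 FPKM in the PZH mice, against 306.3 to 512.3 in the control mice. This gap was carried by 2 P450 genes among them, Cyp2e1 (972 against 206 FPKM, log2 change 2.24) and Cyp1a2 (405 against 95.9 FPKM, log2 change 2.0). Without these 2 genes, a split made after the values were seen, the other 5 summed to 138.4 to 230.7 FPKM in the PZH mice, against 91.28 to 153.0 in the control mice, with overlap, and 2 of the 5 were called higher. These were Axin2 and Lect2, with log2 changes of 0.86 and 0.72 (limma adjusted p = 0.00065 and 0.00239) and no overlap between the groups. The zone markers Glul, Rhbg and Oat had log2 changes of 0.32, 0.26 and -0.49 and were not called (limma adjusted p = 0.114, 0.167 and 0.3). Of 9 hepatocyte markers 4 were higher and 1 was lower. Of 8 periportal markers 2 were higher and 1 was lower, led by Sds (log2 change 0.96) and Cdh1 (log2 change -0.93). Of 8 stellate markers 1 was higher and 2 were lower, of 8 macrophage markers 3 were higher and 2 were lower, of 6 endothelial markers 2 were lower, of 5 cholangiocyte markers 1 was lower, and of 8 markers of lymphocytes and neutrophils 0 were called. In whole liver, fewer cells of a type and less RNA per cell cannot be told apart, and the part of these markers in the changes of the Cyp2d and Cyp2j genes was not tested.

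Finally, the genes whose profile over the 12 mice was most like that of the leading member of each subfamily were found among 3877 genes with a mean of at least 10 FPKM, as the root mean square difference of centred log2(FPKM + 1). For Cyp2j5 these were Gcdh (0.08), Mut (0.09) and Cyb5a (0.09), beside a median of 0.44 over all genes compared. Gcdh and Mut code for mitochondrial enzymes of amino acid breakdown. For Cyp2d26 they were Cs, the citrate synthase (0.06), Mrpl1 (0.07) and Ap1g1 (0.08), beside a median of 0.26. Cyp2d26 itself varied by 0.08 about its mean, so that any gene with a nearly flat profile comes close to it.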

How the data were processed

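Liver RNA of 12 mice was sequenced as strand-specific libraries. The authors trimmed reads with Trimmomatic, mapped them to GRCm38 with HISAT2 and assembled transcripts with StringTie; the authors deposited FPKM per transcript and mouse, which are not read counts. The deposited lncRNA table was not used. Mice were grouped by column names that matched the labels, with 0 columns unassigned. Of 29883 transcripts, 29876 had a gene in GENCODE M21, and a gene value is the sum of its transcripts. Every listed transcript had a sum over the mice of at least 1 FPKM.

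Values were put on log2(FPKM + 1), with no filter, and compared by limma 3.58.1 (R 4.3.3) under its default moderation of the variance, with Benjamini-Hochberg adjustment over the whole table. Ratios and shares used exact permutation tests. Other steps used Python 3.11.15, pandas 2.3.3, numpy 2.4.6, scipy 1.17.1, Biopython 1.88 and matplotlib 3.10.9. The members, the gene lists and the tests were chosen with earlier results of these data known. Named genes were the members with all listed transcripts, the other listed genes of both subfamilies, at most 2 called genes of the largest absolute change per other list (zone markers included), Por, Alas1, Ephx1, Ephx2, Hnf4a, Nr0b2 and Stat5b, and the 3 nearest profiles; leading genes of the remaining marker lists are given as counts. Beyond these, Alb, Ptgs2 and the pericentral markers Axin2, Lect2, Glul, Rhbg and Oat were named after their values were seen. Pairs with members that were not listed left 11 of the 22 planned ratios. Nothing in the sources used here says that same-numbered mice were paired, and no 2 columns were identical.

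The fit was tested on simulated data with 200 of 14188 genes changed by 0.7 on the log2 scale, all drawn from genes with a mean of at least 10 FPKM. Of these 83.5% were recovered, with 12 unchanged genes called. The simulated noise was independent between genes and held no shift of scale between the groups. In the data 44.8% of genes were called, so these rates do not describe the calls above. Alternatives tried were a mean of at least 1 FPKM, a pseudocount of 0.1, a median-ratio scale factor, an equal sum per mouse, a mean-variance trend, no variance moderation, a replicate block and each mouse left out. The depth was not established, since the range given in the report came from a search over preset steps, so no counting interval was computed.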

Additional observations from a re-analysis of the deposited data

Results flagged for a closer look

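A pair of transcripts of Cyp2d10 had 1 mouse far from the others of its group. ENSMUST00000230843 had 104.5 FPKM in Control 4, against 38.0 to 42.8 in the other control mice, a gap of 0.928 of the range of the group. ENSMUST00000230248 had 0.8275 FPKM in Control 6, against 0.0 to 0.1444 in the other control mice, a gap of 0.826 of the range. Both gaps were above the critical value of Dixon for 6 mice, and 42 groups of 6 values were examined, of which chance alone passes about 1 in 20. In Control 4 the full-length Cyp2d10 transcript was the lowest of its group, and the sum of the gene was not. How the assembler divided reads between these overlapping transcripts was not tested.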

How the results depend on the processing

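Of the members, Cyp2j5 and Cyp2j6 were called higher, and the neighbour Cyp2j9 lower, under every alternative run, each mouse left out included. The number of members called was 4 and fell to 2 without variance moderation (Cyp2d9, adjusted p = 0.0621; Cyp2d40, adjusted p = 0.0542) and to between 2 and 4 without 1 mouse (2 without Control 1 or 6 or PZH 3, 4 or 6). It rose to 5 with the median-ratio scale factor, with Cyp2d22 added (adjusted p = 0.0405). Cyp2d40 was also lost with an equal sum per mouse (adjusted p = 0.0692). With the median-ratio scale factor the log2 changes of Cyp2d10 and Cyp2d26 turned to 0.184 and 0.0864, that of the Cyp2d26 transcript to 0.0794, and 4 member transcripts were called in place of 2, with Cyp2d9 ENSMUST00000089129 and the Cyp2d40 transcript added. Without 1 mouse the log2 change of Cyp2d10 lay between -0.0354 and 0.0270 (positive without Control 3 or 6 or PZH 2 or 4), that of Cyp2d9 ENSMUST00000230000 between -0.81 and 0.17 (positive without PZH 4), that of Cyp2d10 ENSMUST00000072776 between -0.0126 and 0.183 and the change in the share of the last between -0.40 and 7.40 percentage points, both negative without Control 4. Without 1 mouse 2 to 4 transcripts were called (4 without PZH 2) and 0 to 5 of the ratios passed, against 3 with all mice; with 1 mouse less the exact test has fewer labellings. With a pseudocount of 0.1 the Cyp2d10 to Cyp2d40 ratio missed the threshold (adjusted exact permutation p = 0.0536). Cyp2j8 was called lower with a pseudocount of 0.1, a mean-variance trend or no variance moderation (limma adjusted p = 0.0177, 0.0489 and 0.0233), and Cyp2d11 was called higher without PZH 2 (limma adjusted p = 0.0248). The shares of transcripts gave 0 calls throughout.

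The profiles showed no pairing by the numbers of the mice. Same-numbered mice deviated with correlations of -0.08 to 0.09, and 0 of the 6 PZH mice correlated best with the control mouse of its own number. Such correlations cannot exclude that mice were paired. With the number as a replicate block, 4 members were called, as without it, and 4 transcripts in place of 2.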
